A study of Rattus norvegicus with 9 samples.

Results

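The 9 genes described here encode the local renin-angiotensin-aldosterone system (RAAS) of the heart. They were taken by gene name (Agt, Ace, Cma1, Agtr1a, Agtr2, Mas1, Lnpep, Nr3c2 and Atp6ap2) and are 9 of the 35843 genes in the deposited table. RNA of the left ventricle from Sprague-Dawley rats was sequenced at day 28 after surgery in 3 groups of 3 rats. The rats were adult males. Sham rats underwent the operation without ligation of a coronary artery and received saline by gavage every day. MI rats had the left anterior descending branch of the coronary artery tied off for good and received the same saline. MI + DAPA (1st d) rats had the same ligation and received dapagliflozin, an inhibitor of the sodium-glucose cotransporter SGLT2, by daily gavage from the first day. None of the 9 rats received sacubitril-valsartan, in which valsartan blocks the type 1 receptor for angiotensin II. The methods state that molecular work mainly used the infarct border with the scar cut away. For the sequencing, the paper's results speak of normal myocardium in Sham and infarct myocardium in both infarcted groups. Whether the sequenced pieces were free of scar is therefore uncertain. How much scar, fat or vessel each specimen held was not tested, and the groups compare pieces of tissue that differ in their cells.

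In the RAAS, angiotensinogen (Agt) is cleaved to angiotensin I, and angiotensin-converting enzyme (Ace) turns this peptide into angiotensin II. Chymase (Cma1), a protease stored in mast cells, is described as a route to angiotensin II without Ace. Whether the rat enzyme acts in this way was not tested, and no enzyme activity was measured. Angiotensin II acts through its type 1 receptor (Agtr1a and Agtr1b in rodents), which drives vasoconstriction, aldosterone release and fibrosis, while the type 2 receptor (Agtr2) and the angiotensin-(1-7) receptor Mas1 are known to oppose it. Lnpep is the membrane aminopeptidase that binds angiotensin IV, Nr3c2 is the mineralocorticoid receptor for aldosterone, and Atp6ap2 is the (pro)renin receptor and also an accessory protein of the vacuolar proton pump.

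Values are FPKM, fragments per kilobase of transcript scaled by a denominator for each library, so levels can be compared between genes. The low values rose in steps of 1 read, which gave 13597239 to 17210909 reads per library and 5702454 to 13171891 outside the mitochondrial genome. Mitochondrial transcripts took 61.1% to 66.9% of the reads in Sham, 7.07% to 19.1% in MI and 17.5% to 32.0% in MI + DAPA (1st d). The deposited FPKM did not divide by these totals: the implied denominator per read was up to 2.10 times that of the first Sham rat in MI. Cardiomyocyte markers were abundant in every rat, with a summed level of 6739 to 9985 FPKM in Sham, 1998 to 9854 in MI and 7636 to 16163 in MI + DAPA (1st d). Fold changes are differences of log2(FPKM + 1) with their standard error (SE), tested with limma across all genes that reached an FPKM of 1 in 3 of the 6 rats compared. A gene was called at a Benjamini-Hochberg adjusted p under 0.05, and log2(FPKM + 1) understates the change of low genes.

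After infarction the converting enzyme and the type 1 receptor were higher than in Sham, and no member tested was called lower. Of the 9 members, 5 passed the filter in MI vs. Sham and 2 of these, Ace and Agtr1a, were called higher, against 19.5% of the 13485 genes tested. None was called lower, against 19.5% of all genes. In MI + DAPA (1st d) vs. MI, 6 members were tested and 0 were called in either direction, as for all 13251 genes (0% higher and 0% lower). The other tool run there, limma voom on the recovered reads, also called 0 genes. At an unadjusted p under 0.05, 3 of the 6 passed (Agtr1a, Cma1 and Atp6ap2), against 8.49% of all genes, and all 3 were lower with dapagliflozin. For these 3 members the 3 treated rats lay entirely below the 3 MI rats, a pattern found in 7.16% of all genes. Separation from Sham was more common: MI rats lay entirely above Sham rats in 27.1% of all genes and entirely below in 27.5%. For treated rats against Sham these shares were 23.2% and 23.3%. Ace and Agtr1a were again called higher in MI + DAPA (1st d) vs. Sham, where 5 members were tested (14.5% of 13359 genes were called higher), and 0 members were called lower (14.1% of all genes). The median log2 fold change of the members tested was 0.50, −0.20 and 0.08 in the 3 comparisons, and that of all genes tested was −0.01, −0.02 and 0.01. The comparisons share their control rats and are not independent of each other.

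**Figure D1:**
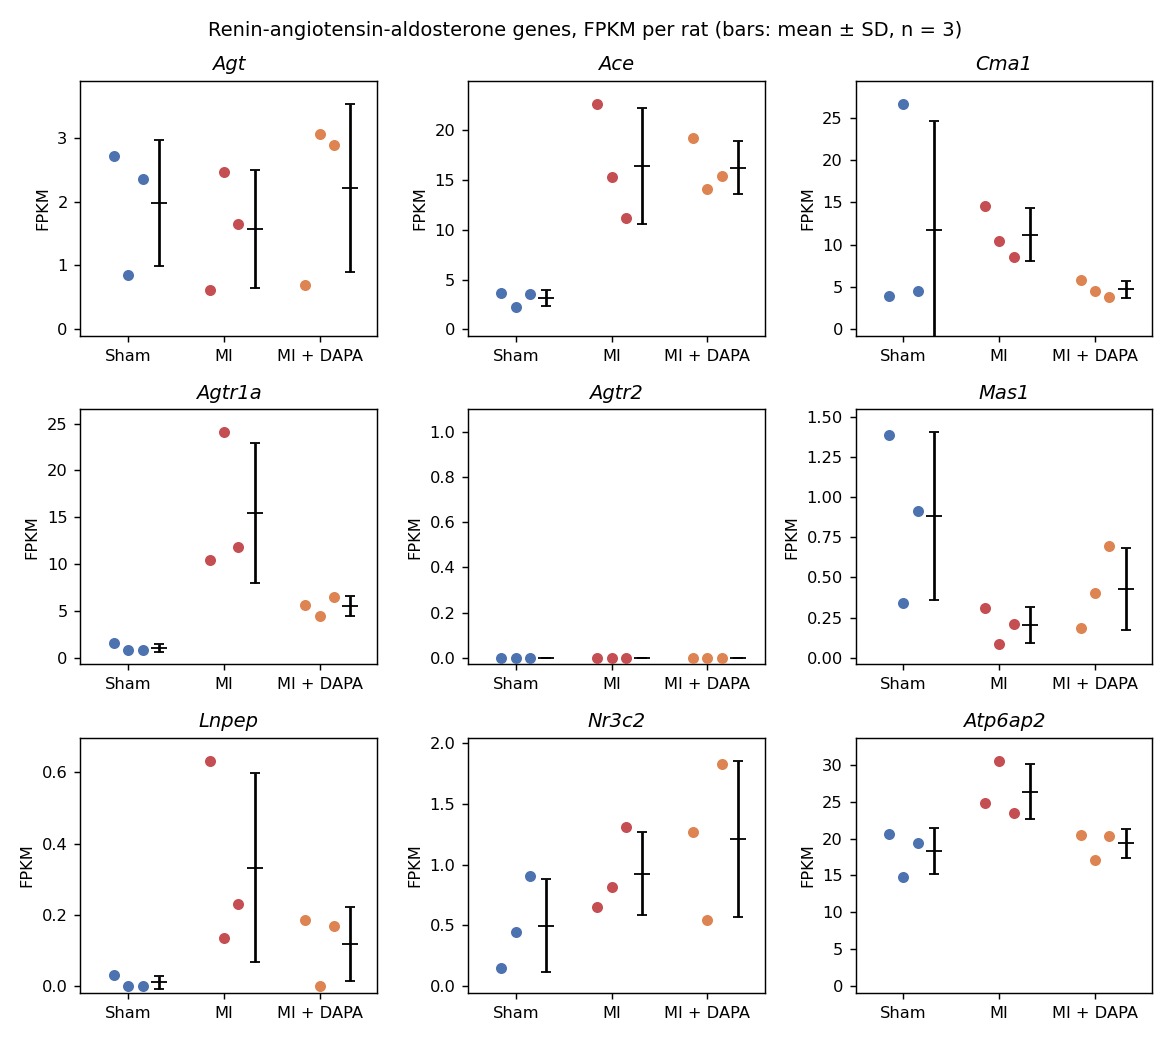
FPKM of the 9 RAAS genes in each of the 9 rats, with 1 point per rat in the order of the replicates 1 to 3 and the mean ± SD of 3 rats beside them. Ace stood at 11.2 to 22.7 FPKM in MI and at most 3.63 in Sham, Agtr1a was highest in MI with treated rats between, and Agtr2 was listed at 0 throughout, while the SD of Cma1 in Sham ran below the axis.

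Angiotensinogen, the precursor of all angiotensin peptides, did not separate the groups. Agt (ENSRNOG00000018445) had 2.72, 0.857 and 2.35 FPKM in the 3 Sham rats, 0.616, 2.46 and 1.65 in MI, and 0.690, 3.06 and 2.89 in MI + DAPA (1st d). Each group held 1 rat below 1 FPKM and others from 1.65 upwards, so the ranges overlapped. The log2 fold change was −0.21 ± 0.38 (SE, n = 3 per group; adjusted p = 0.682 by limma) in MI vs. Sham and 0.28 ± 0.43 (adjusted p = 0.814 by limma) in MI + DAPA (1st d) vs. MI. The 95% interval of the first ran from −1.10 to 0.68.

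Ace, the enzyme that forms angiotensin II and degrades bradykinin, rose after infarction, and its level with dapagliflozin lay within the range of untreated infarcted hearts. Ace (ENSRNOG00000062101) had 3.63, 2.25 and 3.59 FPKM in Sham, 22.7, 15.3 and 11.2 in MI, and 19.2, 14.1 and 15.4 in MI + DAPA (1st d). Every infarcted rat, treated or not, was above every Sham rat, and the treated rats lay within the range of the MI rats. The mean was 5.19 times that of Sham in MI, with a log2 fold change of 2.03 ± 0.28 (SE; adjusted p = 0.00247 by limma). The treated rats exceeded Sham by 2.06 ± 0.21 (adjusted p = 0.0018 by limma). Between treated and untreated infarcted rats the difference was 0.03 ± 0.26, with a 95% interval of −0.58 to 0.64 (adjusted p = 0.968 by limma), and its sign changed with the scaling and with the rat left out. The increase over Sham was called under all 15 alternatives tried in each comparison.

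The promoters of Ace and Agtr1a are shown because these are the members that rose together. RefSeq holds them on the rat build GRCr8 as 300 bases each, from 250 before to 50 after the transcription start, and the capitals mark each GGGCGG (GC box) or TATAA (TATA box) on either strand (CCGCCC or TTATA on the other). Ace lies at chr10:91409879-91410178 on the + strand and Agtr1a at chr17:34435383-34435682 on the − strand, both printed in the direction of transcription.
Ace: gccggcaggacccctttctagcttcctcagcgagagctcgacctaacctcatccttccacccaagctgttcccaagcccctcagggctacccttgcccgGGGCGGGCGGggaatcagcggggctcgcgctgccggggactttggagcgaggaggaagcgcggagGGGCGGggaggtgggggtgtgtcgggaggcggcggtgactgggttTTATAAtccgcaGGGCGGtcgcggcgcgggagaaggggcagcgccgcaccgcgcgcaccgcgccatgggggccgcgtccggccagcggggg
Agtr1a: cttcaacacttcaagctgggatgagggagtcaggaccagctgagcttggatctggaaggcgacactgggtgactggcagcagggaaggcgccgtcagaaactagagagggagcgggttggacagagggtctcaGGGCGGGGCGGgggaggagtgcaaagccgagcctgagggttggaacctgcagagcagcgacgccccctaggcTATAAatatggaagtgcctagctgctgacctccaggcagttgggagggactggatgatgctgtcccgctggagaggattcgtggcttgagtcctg
The Ace window was 72.3% G and C and held GGGCGG 4 times, with overlapping matches counted, and TATAA in both directions in 1 overlapping run that begins 41 bases before the start. The Agtr1a window was 60.7% G and C and held GGGCGG in 2 overlapping matches and TATAA 45 bases before the start. Of 33469 rat promoters of this length, 33.1% held GGGCGG, 26.2% TATAA and 7.33% TGANTCA, the AP-1 motif (its own reverse complement), which neither window held. These letters are a description of the windows, and no binding was measured.

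Cma1, the chymase of mast cells, had lower values in treated than in untreated infarcted hearts, while its comparison with Sham depended on 1 rat. Cma1 (ENSRNOG00000020563) had 3.90, 26.7 and 4.51 FPKM in Sham, 14.6, 10.4 and 8.51 in MI, and 5.81, 4.57 and 3.78 in MI + DAPA (1st d). The second Sham rat was the highest of all 9, and the other Sham rats were below every MI rat. In MI vs. Sham the log2 fold change was 0.39 ± 0.64 (SE; adjusted p = 0.656 by limma). Without the second Sham rat it was 1.2 and was called (adjusted p = 0.0175 by limma), and without the first Sham rat it was −0.05. The mean was 2.37 times lower in MI + DAPA (1st d) than in MI, with a log2 fold change of −1.07 ± 0.23 and a 95% interval of −1.61 to −0.54. Its adjusted p was 0.558 by limma (unadjusted p = 0.00224), so that the difference did not pass the threshold over all genes.

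Between MI and MI + DAPA (1st d) the summed level of mast cell markers moved with Cma1, but not every marker did. Among the treated rats the order was reversed, with the highest sum in the rat with the lowest Cma1. Of 11 listed markers 9 were in the table, and their summed level was 18.4, 51.3 and 20.5 FPKM in Sham, 31.1, 27.9 and 20.9 in MI, and 9.91, 11.3 and 18.7 in MI + DAPA (1st d). The second Sham rat was again the highest, with Cpa3 (mast cell carboxypeptidase) at 15.3 FPKM there and 2.45 and 3.62 in the other Sham rats, and all treated rats were below all MI rats. None of the 6 markers tested in MI + DAPA (1st d) vs. MI was called, with a median log2 fold change of −0.57, and Mcpt4 was listed at 0 in every rat. Kit, the stem cell factor receptor of mast cells, averaged 4.58 FPKM in MI and 7.29 in Sham, with no overlap between the rats, which missed the threshold (adjusted p = 0.0542 by limma), and was the 1 marker called lower in MI + DAPA (1st d) vs. Sham, at 3.45 to 5.24 FPKM (adjusted p = 0.0413 by limma). The part of mast cell number in the level of Cma1 was not tested. In bulk tissue, fewer cells of a type and less RNA per cell cannot be told apart. Set against the mean log2 level of these markers, Cma1 differed by −0.54 between treated and untreated infarcted rats, with overlapping ranges (exact permutation test, two-sided, p = 0.3; adjusted p = 0.514 over 12 such tests). Cma1 belongs to a family of similar mast cell proteases, and reads that fit several of them may have been assigned in part.

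Agtr1a, the main type 1 receptor for angiotensin II in the rodent heart, had the largest fold change of the members tested in MI vs. Sham, and its values with dapagliflozin lay between those of MI and Sham. Agtr1a (ENSRNOG00000018346) had 1.58, 0.803 and 0.832 FPKM in Sham, 10.4, 24.1 and 11.9 in MI, and 5.64, 4.42 and 6.51 in MI + DAPA (1st d). These levels rest on 16 to 36 reads per Sham rat, 440 to 929 per MI rat and 155 to 257 per treated rat. The 3 groups did not overlap, and the second MI rat stood well above the other MI rats. The mean in MI was 14.4 times that in Sham, with a log2 fold change of 2.92 ± 0.33 (SE; adjusted p = 0.00144 by limma), and the mean of the treated rats was 5.16 times that in Sham (1.66 ± 0.24; adjusted p = 0.00373 by limma). Both increases were called under all 15 alternatives of their comparison. The treated mean was 2.80 times lower than the MI mean, with a log2 fold change of −1.26 ± 0.31, a 95% interval of −2.0 to −0.52 and an unadjusted p of 0.00514. Its adjusted p was 0.558 by limma, and between 0.343 and 0.983 under the 15 alternatives.

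Agtr1b, the near-identical second type 1 receptor gene of rodents, was listed at 0 in all 9 rats, and how reads that fit both genes were assigned is uncertain. Fibroblast markers moved with Agtr1a: all 9 were called higher in MI vs. Sham (median log2 fold change 2.81) and likewise in the treated rats against Sham (2.35), and their summed level was 516 to 803 FPKM in Sham, 4025 to 7758 in MI and 2465 to 4415 in treated rats. Macrophage markers did the same, with 8 of 8 called higher in both comparisons with Sham, and the part of either cell type in the level of Agtr1a was not tested. Set against the mean log2 level of the fibroblast markers, Agtr1a was −3.57 ± 0.08 (SD, n = 3) in Sham, −3.86 ± 0.52 in MI and −4.54 ± 0.28 in MI + DAPA (1st d). MI and Sham overlapped on this measure (difference −0.29, exact permutation p = 0.5; adjusted p = 0.6), and the sign turned with a pseudocount of 0.1 (0.37). The treated rats lay below the Sham rats by 0.97 (exact permutation p = 0.1, the smallest that 3 against 3 allows; adjusted p = 0.24). Agtr1a was low in Sham, so the size of this gap also depends on the pseudocount. The listed fibroblast markers rose by unlike amounts in MI. Mean FPKM in Sham and MI was 317 and 900 for Dcn, and 7.08 and 33.6 for Tcf21. For Col1a1 the means were 25.7 and 1018, and for Col3a1 125 and 2827. Differences on this measure therefore also depend on which markers are listed.

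Ace, an enzyme best known from the endothelium, rose while endothelial markers fell. Of 10 listed endothelial markers 9 were in the table, and 8 of these were called lower in MI vs. Sham, with a median log2 fold change of −1.42 and summed levels of 1027 to 1262 FPKM in Sham, 302 to 398 in MI and 424 to 465 in MI + DAPA (1st d). Vwf, von Willebrand factor, was the marker not called (−0.19). Set against the mean log2 level of these markers, Ace was −4.33 ± 0.06 (SD, n = 3) in Sham, −0.94 ± 0.59 in MI and −1.32 ± 0.25 in MI + DAPA (1st d). The infarcted rats lay 3.39 (MI) and 3.02 (treated) above Sham with no overlap (exact permutation p = 0.1 for each; adjusted p = 0.24). Part of this gap is the fall of the markers themselves. Fibroblast and macrophage markers rose in MI vs. Sham, and Ace was not set against them. The part of each cell type in the level of Ace was not tested.

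**Figure D2:**
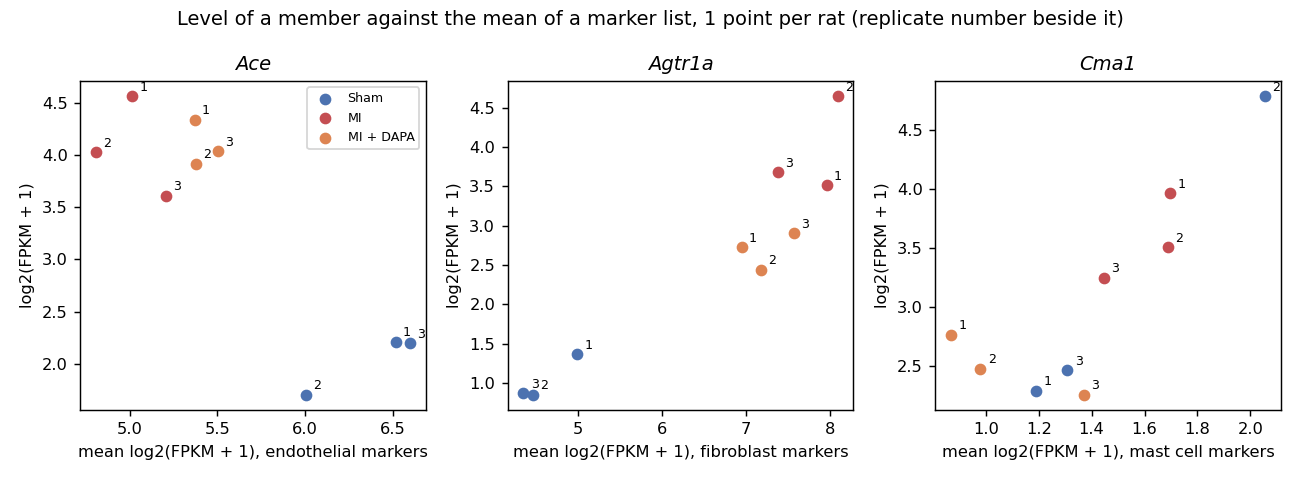
Levels of Ace, Agtr1a and Cma1, as log2(FPKM + 1), against the mean log2(FPKM + 1) of the endothelial, fibroblast and mast cell markers, with 1 point per rat, coloured by group and numbered by replicate. Ace was high where endothelial markers were low, Agtr1a was high where fibroblast markers were high, and the second Sham rat had the highest levels of Cma1 and of the mast cell markers.

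The receptors that are held to oppose the type 1 receptor were low or not seen. Agtr2 (ENSRNOG00000050006) was listed at 0 in all 9 rats. Mas1 (ENSRNOG00000014971) had 1.39, 0.342 and 0.910 FPKM in Sham, 0.311, 0.0851 and 0.209 in MI, and 0.182, 0.406 and 0.692 in MI + DAPA (1st d). All MI rats were below all Sham rats, as in 27.5% of the genes tested in MI vs. Sham, and the treated rats overlapped with both. The gene did not reach the filter and was not tested by limma. Its reads numbered 52 in Sham, 23 in MI and 44 in treated rats, which gives a rate in MI of 0.233 times that in Sham with an exact 95% interval of 0.136 to 0.387 that covers counting error only. An exact permutation test of 3 against 3 rats cannot go below p = 0.1.

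Lnpep (ENSRNOG00000047387), the angiotensin IV-binding aminopeptidase that travels with the glucose transporter GLUT4, also stayed under the filter. It had 0.0325, 0 and 0 FPKM in Sham, 0.633, 0.135 and 0.230 in MI, and 0.185, 0 and 0.169 in MI + DAPA (1st d). The Sham rats together held 1 read and the MI rats 56, a rate ratio of 29.5 with a counting interval of 5.08 to 1184, and the 36 reads of the first MI rat made up most of the latter. All MI rats were above all Sham rats, as in 27.1% of the genes tested in MI vs. Sham. The treated rats overlapped with both groups.

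The mineralocorticoid receptor Nr3c2 (ENSRNOG00000034007) was low throughout, at 0.145, 0.444 and 0.906 FPKM in Sham, 0.649, 0.818 and 1.31 in MI, and 1.27, 0.544 and 1.83 in MI + DAPA (1st d). The ranges of all 3 groups overlapped. It passed the filter only in MI + DAPA (1st d) vs. MI, where the log2 fold change was 0.17 ± 0.28 (SE; adjusted p = 0.832 by limma). Cyp11b2, aldosterone synthase, reached at most 0.0595 FPKM in any rat, and Hsd11b2, the enzyme that shields the receptor from glucocorticoids, reached at most 0.817.

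Atp6ap2, the (pro)renin receptor, had the highest mean level of the members in each group. Atp6ap2 (ENSRNOG00000003858) had 20.7, 14.8 and 19.5 FPKM in Sham, 24.9, 30.6 and 23.5 in MI, and 20.5, 17.1 and 20.4 in MI + DAPA (1st d). The MI rats were above all others, and the treated rats overlapped with Sham. MI rats lay entirely above Sham rats in 27.1% of all genes tested in that comparison. The log2 fold change was 0.50 ± 0.18 (SE) in MI vs. Sham, which missed the threshold (adjusted p = 0.0604 by limma) and passed it when all 9 rats shared 1 fit (adjusted p = 0.0378 by limma). Between treated and MI rats it was −0.42 ± 0.15 (adjusted p = 0.558 by limma), and against Sham the treated rats differed by 0.08 ± 0.18 (adjusted p = 0.754 by limma).

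The order of the levels differed between the groups. In Sham the mean FPKM ± SD ran from Atp6ap2 (18.3 ± 3.09) through Cma1 (11.7 ± 12.99), Ace (3.16 ± 0.79), Agt (1.97 ± 0.99), Agtr1a (1.07 ± 0.44), Mas1 (0.880 ± 0.524) and Nr3c2 (0.499 ± 0.383) to Lnpep (0.0108 ± 0.0187) and Agtr2 at 0. Cma1 overlapped there with Atp6ap2 but not with Ace, Ace overlapped with Agt, and Agt, Agtr1a, Mas1 and Nr3c2 overlapped with each other. In MI, Ace (16.4 ± 5.82), Agtr1a (15.5 ± 7.51) and Cma1 (11.2 ± 3.13) followed Atp6ap2 (26.3 ± 3.74), overlapped with each other and were clear of Agt (1.57 ± 0.92), and Agtr1a reached into the range of Atp6ap2. Among the treated rats, Atp6ap2 (19.3 ± 1.92) and Ace (16.3 ± 2.65) overlapped with each other and stood above Agtr1a (5.52 ± 1.05) and Cma1 (4.72 ± 1.02), which overlapped with each other too.

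**Figure D3:**
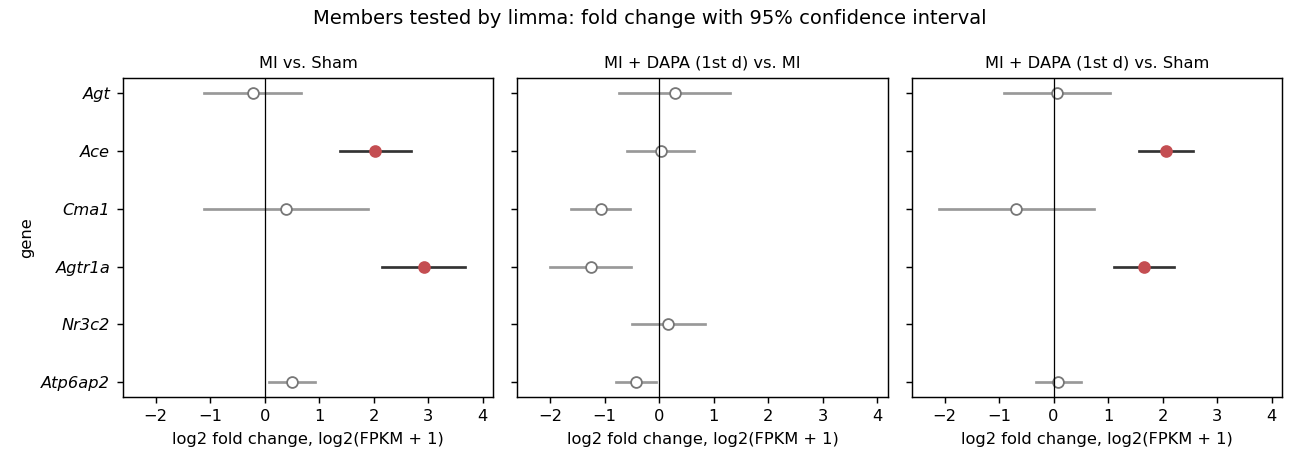
Log2 fold changes of the RAAS genes tested, with 95% confidence intervals, in the 3 comparisons. Filled points mark an adjusted p under 0.05 by limma, which only Ace and Agtr1a reached and only against Sham, while Agtr1a, Cma1 and Atp6ap2 had intervals below 0 in MI + DAPA (1st d) vs. MI.

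Most other enzymes that cut angiotensin peptides changed after infarction, in both directions. Of 70 further genes listed for the pathway 65 were in the table and 53 were tested, and 21 were called higher and 6 lower in MI vs. Sham, against 19.5% of all genes in each direction, with a median log2 fold change of 0.49 against −0.01 over all genes. The share called lower was thus under that of all genes. Without the third Sham rat 17 were called, as without the first MI rat. Among the peptidases, 7 of 11 tested were called higher and 2 lower, with a median of 1.06. Enpep, aminopeptidase A, which turns angiotensin II into angiotensin III, had 57.4, 42.3 and 65.8 FPKM in Sham, 14.9, 10.7 and 13.3 in MI, and 15.0, 15.5 and 16.3 in MI + DAPA (1st d). It fell by 2.00 on the log2 scale in MI vs. Sham (adjusted p = 0.00125 by limma). Rnpep, aminopeptidase B, fell by 1.87 (adjusted p = 0.00141 by limma). Both calls were lost in 1 of 15 alternatives, with libraries scaled to their summed FPKM, mitochondrial genes included. There Enpep differed by −0.50 (adjusted p = 0.05002 by limma, just over the threshold) and Rnpep by −0.34 (adjusted p = 0.178 by limma). Anpep, aminopeptidase N, which turns angiotensin III into angiotensin IV, went from 2.16, 2.12 and 1.71 FPKM in Sham to 16.8, 44.1 and 20.4 in MI and 14.3, 10.4 and 15.6 in MI + DAPA (1st d). It rose by 3.11 in MI vs. Sham (adjusted p = 0.00136 by limma). The groups of infarcted rats did not overlap with Sham for any of these 3 enzymes. Mme, neprilysin, the enzyme that sacubitril inhibits and that also cuts angiotensin peptides, was under 0.8 FPKM in all 9 rats.

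Among receptors and their partners, 3 of 8 tested were called higher and 0 lower in MI vs. Sham, against 19.5% of all genes in each direction. Rgs2, which damps signalling of the type 1 receptor through Gq, rose by 2.35 on the log2 scale (adjusted p = 0.0026 by limma), from 2.22 to 7.27 FPKM in Sham to 22.5 to 25.6 in MI. Agtrap, the protein that promotes internalisation of the type 1 receptor, rose by 1.28 (adjusted p = 0.0046 by limma). Rgs4, a related regulator, rose by 0.50 (adjusted p = 0.0232 by limma), a call lost on leaving out any 1 rat but the third Sham rat. All 3 were also called higher in MI + DAPA (1st d) vs. Sham, where 14.5% of all genes were.

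Of the genes of corticosteroid metabolism, Hsd11b1, which regenerates active glucocorticoid, rose by 1.59 (adjusted p = 0.0105 by limma), and 1 of 2 tested was called. Genes that respond to corticosteroid receptors did not move together: of 6 tested, 2 were called higher and 1 lower. Over all genes 19.5% were called in each direction, and both lists are too short to set apart from that share. Sgk1, a kinase induced by aldosterone, fell by 1.32 (adjusted p = 0.00368 by limma), from 25.6 to 43.3 FPKM in Sham to 11.7 to 14.0 in MI. Tsc22d3 rose by 1.47 and Fkbp5 by 2.38 (adjusted p = 0.029 and 0.0409 by limma), and both lost their call without the first or the third rat of either group.

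Of 7 genes known to respond to angiotensin II, 3 were called higher in MI vs. Sham, against 19.5% of all genes, and 5 in the treated rats against Sham, against 14.5% of all genes, with 0 lower in either. Ccn2, connective tissue growth factor, had 61.3, 32.9 and 60.2 FPKM in Sham, 796, 186 and 339 in MI, and 498, 245 and 273 in MI + DAPA (1st d). It rose by 2.87 in MI vs. Sham (adjusted p = 0.00594 by limma). Edn1, the endothelin precursor, rose by 0.80 (adjusted p = 0.0478 by limma), a call kept under 5 of 15 alternatives and lost on leaving out any 1 rat but the first Sham rat. These genes respond to many other signals as well.

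Of 14 genes of the vacuolar proton pump, with which Atp6ap2 associates, 4 were called higher and 2 lower in MI vs. Sham, against 19.5% of all genes in each direction, so the total called was near that of all genes. Atp6ap1, the other accessory protein of the pump, was at 23.5 to 24.1 FPKM in Sham, 63.8 to 68.0 in MI and 50.8 to 54.7 in MI + DAPA (1st d), and rose by 1.42 (adjusted p = 0.000953 by limma), while Atp6v0a1 fell by 0.64 (adjusted p = 0.0189 by limma) and Atp6v1d rose by 0.77 (adjusted p = 0.0301 by limma). Both subunits lost their call without the second or the third Sham rat or the first or the third MI rat. Of 5 partners of Lnpep in the GLUT4 storage vesicle, Lrp1 rose by 2.85 (adjusted p = 0.000975 by limma) and Slc2a4, which encodes GLUT4, fell by 1.48 (adjusted p = 0.0162 by limma, and 0.0524 without the third Sham rat). With libraries scaled to their summed FPKM, mitochondrial genes included, Sgk1, Atp6v0a1 and Slc2a4 were above Sham instead of below.

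With dapagliflozin, 0 of the 53 pathway genes tested were called against MI, as for all genes (0% in each direction), and limma voom called 0. At an unadjusted p under 0.05 by limma 5 passed, a share near the 8.49% of all genes. Against Sham 19 were called higher and 4 lower (14.5% and 14.1% of all genes), with a median log2 fold change of 0.60 against 0.01 over all genes. The count against Sham was 14 to 20 in all with 1 rat left out, and lowest without the third Sham or the first treated rat. Slc2a4 was the 1 gene of the 53 that met the study's looser criteria against MI (unadjusted p under 0.05 and a log2 fold change beyond 1). Over all genes 0.951% met them as higher and 1.11% as lower. Slc2a4 had 17.2, 8.50 and 26.2 FPKM in MI and 32.7, 59.8 and 25.2 in MI + DAPA (1st d), with overlapping ranges (1.17 ± 0.45 SE, adjusted p = 0.558 by limma). Of the members, Agtr1a and Cma1 met these criteria, both lower.

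**Figure D4:**
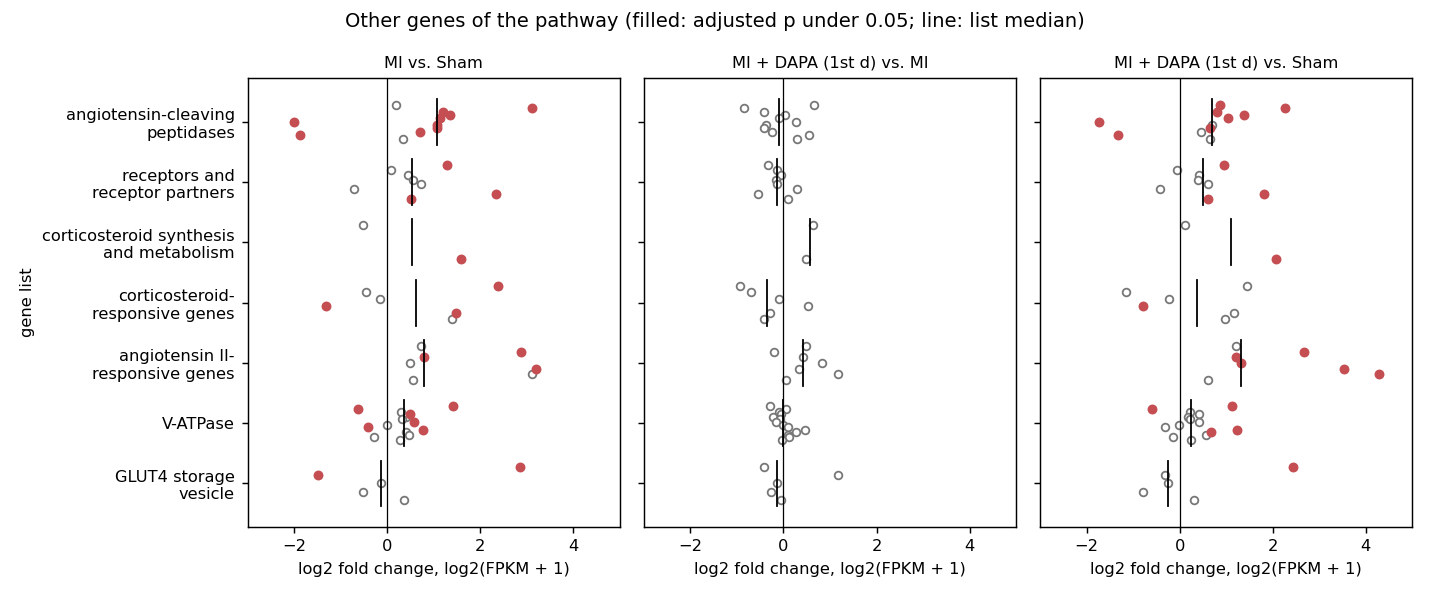
Log2 fold changes of the 53 other pathway genes tested, by list, in the 3 comparisons, with 1 point per gene, filled where the adjusted p was under 0.05 by limma, and a line at each list's median. In MI vs. Sham 21 points were called above 0 and 6 below, and none was called in MI + DAPA (1st d) vs. MI.

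Across the 9 rats and 11253 genes, the genes most like each member by Pearson's r of log2(FPKM + 1) were listed as a description, since the rats share 3 groups and the r mostly follows them. Ace was closest to Sulf1 (r = 0.988), Dnajb12 (0.986) and Tmed7 (0.985). Agtr1a was close to Edar and Sla (0.991 each), and Sla, an adaptor protein of blood cells, had 1.53, 8.08 and 4.04 FPKM on average in Sham, MI and MI + DAPA (1st d). Atp6ap2 was closest to Rnf145, Nsf and Map2k4 (0.965 each), Cma1 to Tfdp1 (0.924), Selenoi (0.914) and Cdca4 (0.902), and Agt to Dnajc14 (0.878), Cirbp (0.847) and Rsbn1l (0.847).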

How the data were processed

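Left ventricular poly(A) RNA of 9 rats was sequenced as paired reads, and groups were taken from the sample titles. The authors deposited 1 table of FPKM per gene and rat, and the submitters' processing notes name HISAT2 2.0.5, StringTie 1.3.3b, featureCounts 1.5.0-p3 and DESeq2. The genome build and annotation behind it are not given in the sources used here. The unit was also read from the values: 100% of the 18896 genes above 0 in at least 4 libraries were whole multiples of 1 read, and these recovered reads give the depth. All 9 value columns were used and 0 were left out.

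Values were transformed to log2(FPKM + 1), filtered at an FPKM of 1 in at least 3 of the 6 rats of a comparison, and tested with limma 3.58.1 in R 4.3.3 (moderated statistics with an intensity trend, two-sided, Benjamini-Hochberg over all genes tested). The scripts were tested on simulated data. For levels set against marker lists, a two-sided exact permutation test was run in each comparison, with p-values adjusted over all 12 such tests run, of which 3 are not reported here. The labels call the 3 samples of a group biological replicates. Read intervals cover counting error only.

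The 9 genes, the pathway lists and the marker lists were chosen with earlier results of these data known. All 9 members are described. Of the pathway genes, Agtr1b, Mme, Cyp11b2, Hsd11b2 and Nr3c1 were to be named always (Nr3c1 is not analysed here), and from each list up to 3 called genes with the smallest p in MI vs. Sham. For each member tested there, the 3 genes with the highest r over the rats were named. Some genes that these rules pick are not reported here. Marker genes and Slc2a4 in the treated comparison were named after their values were seen. Alternatives were another pseudocount, no filter, 1 fit of all 9 rats, a replicate block, 3 other scalings, other call criteria, a constant prior variance, each rat left out in turn and, chosen after seeing the data, limma voom on the recovered reads. Promoter sequences are from RefSeq (GRCr8), where 7 of the 9 members matched by symbol; protein sequences were not used here.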

Additional observations from a re-analysis of the deposited data

How the results depend on the processing

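The rats of MI + DAPA (1st d) are called treated here. Ace and Agtr1a were called higher against Sham under every alternative. Scaling to the summed FPKM of all genes, mitochondrial included, shifted the fold changes. The median log2 fold change of all genes moved from −0.01 to 1.27 in MI vs. Sham and from 0.01 to 0.96 in treated vs. Sham. In treated vs. MI that median moved from −0.02 to −0.34. With this scaling 4 members, 46 pathway genes and 10991 genes (10655 higher, 336 lower) were called in MI vs. Sham, and 46 pathway genes and 8685 genes (8422 higher, 263 lower) in treated vs. Sham. It reversed Agt (0.70), Sgk1 (0.16), Atp6v0a1 (0.85) and Slc2a4 (0.0181) in MI vs. Sham, all less than the shift of that median, as well as Ace (−0.32) in treated vs. MI and Cma1 (0.29) in treated vs. Sham. Scaling to the summed FPKM of genes outside the mitochondrial genome reversed Ace (−0.0239) in treated vs. MI and Atp6ap2 (−0.00983) in treated vs. Sham. By the study's criteria 3024 genes passed in MI vs. Sham, 2364 in treated vs. Sham and 273 in treated vs. MI, with 2 members and 1 pathway gene in the last. Adding the fold limit to the adjusted p left 2895 and 2168 genes against Sham, and 15 pathway genes in treated vs. Sham. A pseudocount of 0.1 turned Agtr1a against the fibroblast markers to 0.37 in MI vs. Sham. With each rat left out in turn, pathway genes called ranged from 17 (without the third Sham or first MI rat) to 30 in MI vs. Sham and from 14 to 20 in treated vs. Sham (14 without the third Sham or first treated rat, 15 without the second Sham rat). All genes called ranged from 0 to 2 in treated vs. MI (2 without the first MI rat) and from 1908 to 3186 in treated vs. Sham (1908 without the first treated rat, 2353 without the third Sham rat). Log2 fold changes that changed sign ranged in MI vs. Sham from −0.52 to 0.0871 for Agt and −0.0531 to 1.2 for Cma1. Those in treated vs. MI ranged from −0.0184 to 0.69 for Agt, −0.20 to 0.28 for Ace and −0.0265 to 0.41 for Nr3c2, and those in treated vs. Sham from −0.24 to 0.48 for Agt, −1.13 to 0.12 for Cma1 and −0.0546 to 0.17 for Atp6ap2. Cma1 against the mast cell markers ranged from −0.52 to 0.30 in treated vs. Sham, and Agtr1a against the fibroblast markers from −0.50 to 0.00423 in MI vs. Sham. The cause of these changes was not tested. Whether the replicate numbers pair the rats cannot be settled with 3 rats per group. Rats with the same number deviated together with r of −0.00811 to 0.0734, −0.304 to 0.0308 and −0.00305 to 0.195 in the 3 comparisons. In these, 1, 1 and 2 of 3 rats correlated best with their own number. With the replicate block 4349, 0 and 3803 genes were called, 2, 0 and 2 of them members. Limma voom on the recovered reads, added after seeing the data, called 5051, 0 and 3787 genes. Agt, Mas1, Lnpep and Nr3c2 rest on at most 101, 29, 36 and 87 reads in any rat, which limits what could be detected in them.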
